A study of Rattus norvegicus with 4 samples.

Results

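The genes described here belong to the p53 and DNA damage response. The rule named 9 of them by symbol (Mdm2, Cdkn1a, Ccng1, Bax, Phlda3, Zmat3, Sesn1, Gadd45a and Bbc3), and 8 of the 9 had values among the 13261 genes used. Bbc3, which encodes the cell death protein Puma, was not analysed here. They were chosen by name and function, and in part by a measured value, the small SD of Cdkn1a between replicates, so levels and spreads of the 8 genes are given as a description. Poly(A) RNA was sequenced from glomeruli, the filtration units of the kidney, of male Wistar rats that had received intravenous Adriamycin (ADR, doxorubicin). All 4 samples form this 1 group, there is no untreated group in the data analysed here, and a level therefore carries no direction of change. Age, ADR dose and the number of animals behind each sample are not given in the sources used here. More than 1 harvest day is named in the labels without assignment to samples. The spread reported between replicates may therefore be partly technical.

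p53 is a transcription factor that is held at low levels by the ubiquitin ligase Mdm2. DNA damage releases p53 from this control, and p53 then induces genes for cell cycle arrest, DNA repair and cell death, as well as Mdm2 itself, which closes a negative feedback loop. Doxorubicin traps type II topoisomerases on DNA and causes strand breaks, and rats given the drug develop podocyte injury with proteinuria. Podocytes are the postmitotic epithelial cells of the glomerular filter.

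Because p53 acts through a paired decamer in DNA, the windows upstream of the genes' starts were read from RefSeq (build GRCr8) for the 6 of 9 genes with an entry, Mdm2, Cdkn1a, Ccng1, Phlda3, Sesn1 and Gadd45a. Each window held 250 bases before the start listed in the table. The search used the p53 half-site consensus, a decamer that equals its own reverse complement, so that both strands are covered by 1 pass. Adjoining pairs of decamers with at most 1 mismatch in all 20 bases were found in 2 of the 6 windows, those of Cdkn1a and Ccng1. Over all 33469 windows of the same length, 20 held such a pair, or 0.0598%. The Cdkn1a window (chr20:7150682-7150931, plus strand) and the Ccng1 window (chr10:25684877-25685126, minus strand) are shown because these genes hold the longest match to the motif, which is in capitals.
Cdkn1a: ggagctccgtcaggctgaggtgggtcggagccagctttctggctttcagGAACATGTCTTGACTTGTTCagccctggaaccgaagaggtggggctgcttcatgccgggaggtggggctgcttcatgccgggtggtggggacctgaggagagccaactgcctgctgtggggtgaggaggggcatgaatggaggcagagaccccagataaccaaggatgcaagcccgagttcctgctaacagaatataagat
Ccng1: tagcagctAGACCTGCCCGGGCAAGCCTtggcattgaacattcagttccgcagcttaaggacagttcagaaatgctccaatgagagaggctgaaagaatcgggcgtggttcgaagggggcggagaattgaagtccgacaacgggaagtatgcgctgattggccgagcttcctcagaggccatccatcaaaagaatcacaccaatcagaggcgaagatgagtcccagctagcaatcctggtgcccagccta
The pair lay at -201 to -182 relative to the start in Cdkn1a and at -242 to -223 in Ccng1. A single exact half-site, in capitals with its flanks, was found in the windows of Sesn1 (chr20:46948537-46948566, plus strand) and Gadd45a (chr4:97486828-97486857, minus strand).
Sesn1: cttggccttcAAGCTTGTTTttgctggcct
Gadd45a: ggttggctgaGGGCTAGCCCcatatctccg
With Cdkn1a and Ccng1, 4 of the 6 windows thus held an exact half-site, against 6.64% of all windows. The Mdm2 and Phlda3 windows held none of these letters, which says nothing of sites elsewhere in the genes. A match is a description of sequence, and no binding was measured.

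The 4 libraries held between 13566962 and 16207027 reads in the genes used. The share of reads from the 13 protein-coding mitochondrial genes was 7.46%, 12.5%, 9.34% and 7.56% in replicates 1 to 4. No pair of libraries agreed within counting error, since the closest pair, replicates 1 and 4, had a mean chi-square of 17.4 per gene with 1 degree of freedom. Values are log2 CPM (CPM being reads scaled to the same total of listed genes in each library), errors are SDs over 4 replicates, and CPM is not corrected for transcript length, so that different genes are not ranked by level.

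Under the deposited scaling, Cdkn1a and Sesn1 had an SD below the SD expected from counting of reads alone, and the other 6 of the 8 genes one above it. Whether the 2 smaller SDs lie below what counting error allows was not tested. A chi-square index of dispersion on the reads, adjusted over all genes by the Benjamini-Hochberg method, called 6 of the 8 beyond counting error. Over all genes it called 9222, or 69.5%, so the share among the 8 genes was near the background. The SD was smaller than the counting SD in 2 of the 8, Cdkn1a and Sesn1, against 10.0% of all genes. Cdkn1a was chosen in part for its small SD, so this count is partly set by the choice. The median SD of the 8 genes was 0.16 on the log2 scale, beside 0.18 over all genes. Set against limma's trend of variance with abundance, 4 of the 8 genes had an SD above the trend, as did 47.8% of all genes, and limma's test called none of the 8 and 0 of the 13261 genes (0%, smallest adjusted p = 0.834). At an unadjusted p under 0.05, limma passed 722 genes, or 5.44%, and 0 of the 8. The trend and the scatter about it are fitted to these same genes, so such counts are largely built in. They say little about the 8.

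**Figure D1:**
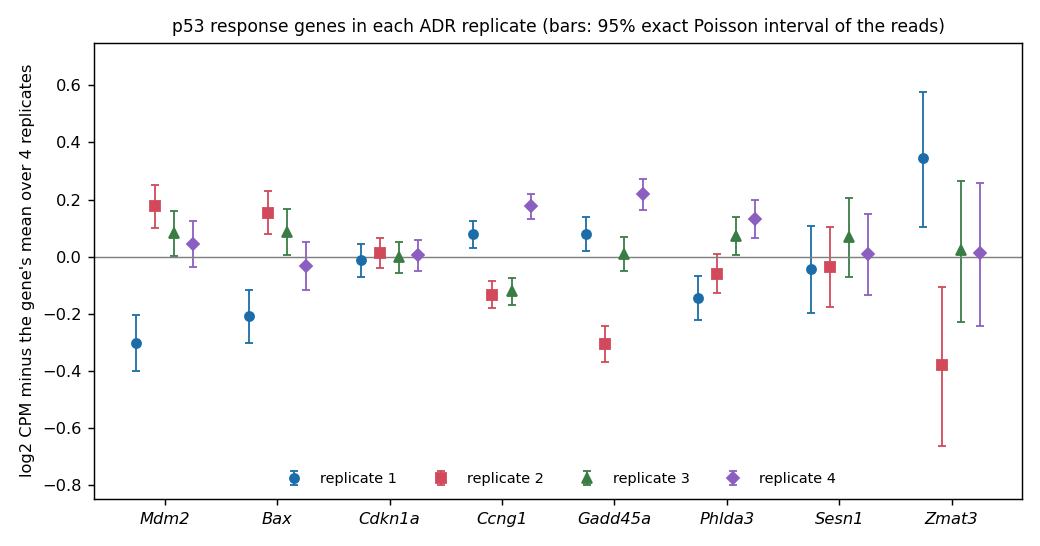
Deviation of each gene's log2 CPM from its own mean over 4 replicates (y axis) for the 8 p53 response genes (x axis); points are replicates and bars are 95% exact Poisson intervals of the reads. The 4 points of Cdkn1a lie within 0.026 of each other, whereas Mdm2 and Bax are lowest in replicate 1 and Gadd45a and Zmat3 in replicate 2.

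The feedback genes differed in which replicate was low. Mdm2 encodes the ligase that marks p53 for degradation. It had 865, 1441, 1278 and 1236 reads in replicates 1 to 4, or 6.0, 6.47, 6.38 and 6.34 log2 CPM. Replicate 1 was the low one, and the counting intervals of the other 3 overlapped each other but not that of replicate 1. The mean was 6.30 ± 0.21 log2 CPM (SD, n = 4), and the highest replicate exceeded the lowest 1.39-fold. The SD was 5.03 times the SD from counting error and 1.43 times limma's trend at that abundance. Leaving out replicate 1 brought the SD to 0.068 and ended the call (adjusted p = 0.0792, chi-square index of dispersion).

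Ccng1 encodes cyclin G1, a p53-induced protein that recruits the phosphatase PP2A to Mdm2. Its reads numbered 3582, 3694, 3524 and 4307, or 8.04, 7.83, 7.84 and 8.14 log2 CPM. Replicates 1 and 4 were high and replicates 2 and 3 low, and of the 6 pairs of replicates only replicates 2 and 3 had overlapping counting intervals. The mean was 7.97 ± 0.15 log2 CPM (SD, n = 4) with a 1.24-fold range. Both genes act on p53 through Mdm2, yet replicate 1 was below the mean of Mdm2 by a deviation of -0.30 and above that of Ccng1 by 0.08.

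The cell cycle arrest genes held the most even gene of the set and one of the least even. Cdkn1a encodes p21, an inhibitor of cyclin-dependent kinases that halts the cycle at the entry to S phase. It had 2475, 3010, 2822 and 2817 reads in the 4 replicates, and the 95% exact Poisson interval of the lowest of these ran from 2378 to 2574. Scaled by library size, these are 7.51, 7.54, 7.52 and 7.53 log2 CPM, so all 6 pairs of replicates had overlapping counting intervals. The mean was 7.53 log2 CPM with an SD of 0.011 and a range of 1.02-fold, equal to a coefficient of variation of 0.762%. Counting error alone gives an SD of 0.027 at this number of reads. Under the deposited scaling, 5 of all 13261 genes had a smaller SD, and none of the 953 genes with at least as many reads as Cdkn1a did. This rank restates the small SD for which Cdkn1a was in part chosen.

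**Figure D2:**
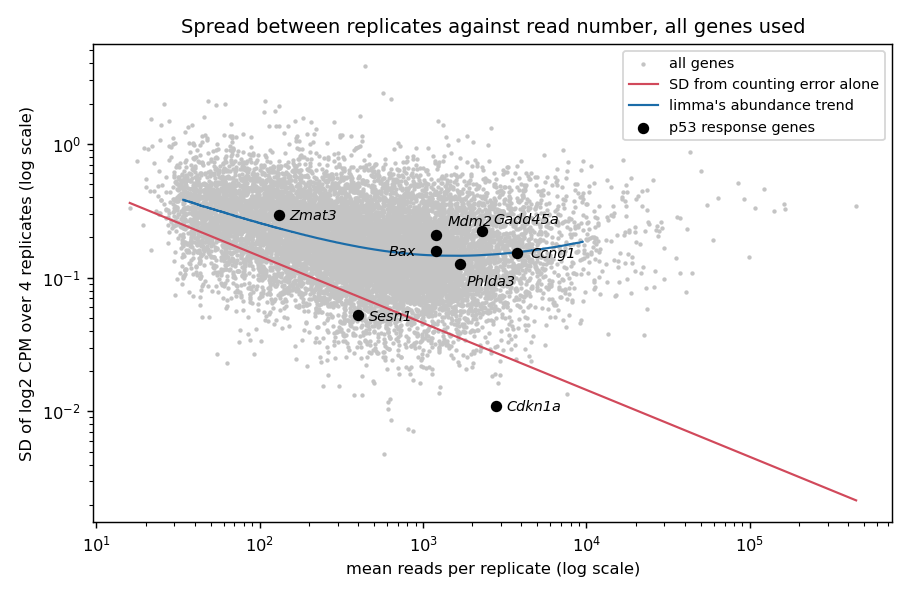
SD of log2 CPM over 4 replicates (y axis, log scale) against mean reads per replicate (x axis, log scale) for all genes used (grey) and the 8 p53 response genes (black); the red line is the SD from counting error alone and the blue line limma's abundance trend, smoothed by a running median. Cdkn1a, at an SD of 0.011, and Sesn1, at 0.052, lie under the red line, and the other 6 genes lie above it.

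The SD of Cdkn1a depended on how libraries were scaled, because every scaling shifts a whole replicate by more than the gene's own spread. It was 0.027 with trimmed-mean factors and 0.026 with median-of-ratios factors, which are about the SD of counting error. With totals that leave out the mitochondrial genes it was 0.047, replicate 2 stood 0.065 above the mean, and the gene was called beyond counting error (adjusted p = 0.0449, chi-square index of dispersion). That scaling raises replicate 2, the library with the largest mitochondrial share, by 0.053 and lowers replicates 1 and 4 (shifts of -0.028 and -0.027). The number of genes with a smaller SD than Cdkn1a went from 5 under the deposited scaling to 87, 79 and 375 under these 3. Under each of the 4 scalings Cdkn1a had the smallest SD of the 8 genes. Relative to counting error, Sesn1 was the more even gene under the 3 other scalings. Its SDs there were 0.031, 0.030 and 0.060, against a counting SD of 0.072.

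**Figure D3:**
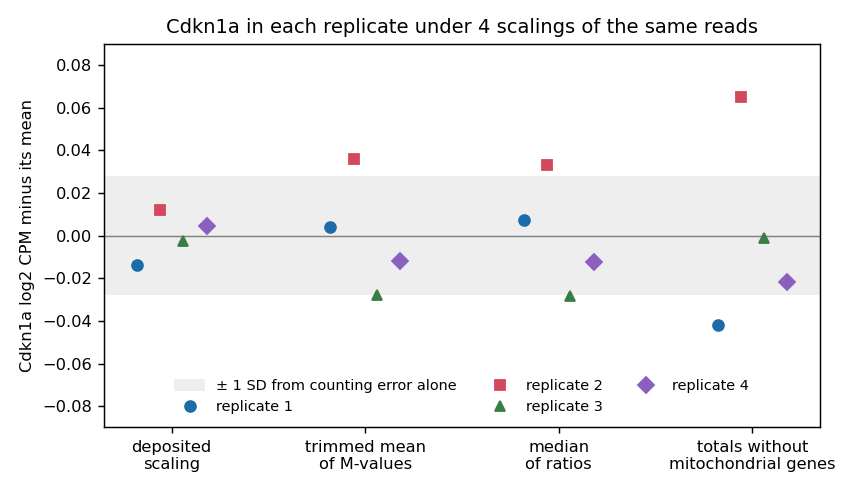
Cdkn1a log2 CPM minus its mean (y axis) in the 4 replicates under 4 scalings of the same reads (x axis); the grey band is 1 SD either side of 0 from counting error alone. All 4 points lie within the band under the deposited scaling, and replicate 2 rises to 0.065 when mitochondrial genes are left out of the totals.

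Gadd45a encodes a stress sensor that binds PCNA and p38-pathway kinases and slows the cycle at the G2 to M transition. It had 2174, 1987, 2343 and 2690 reads, or 7.32, 6.94, 7.25 and 7.46 log2 CPM. Replicate 2 was low and replicate 4 high, and replicates 1 and 3 alone had overlapping counting intervals. The mean was 7.25 ± 0.22 log2 CPM (SD, n = 4), and the range was 1.44-fold. With 7.37 times the counting SD, Gadd45a exceeded counting error by more than any other of the 8 genes. Without replicate 2 its SD was 0.106.

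Bax encodes the pore-forming protein that opens the outer mitochondrial membrane in apoptosis. Its reads were 918, 1411, 1275 and 1166, or 6.08, 6.44, 6.38 and 6.26 log2 CPM. Replicate 1 was lowest and replicate 2 highest, the same order of replicates as for Mdm2. The mean was 6.29 ± 0.16 log2 CPM (SD, n = 4) with a 1.29-fold range. Without replicate 1 the SD was 0.095.

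Phlda3, Sesn1 and Zmat3 act on growth signalling and RNA. Phlda3, a pleckstrin-homology protein that keeps the kinase Akt from the membrane, had 1354, 1716, 1781 and 1845 reads, or 6.64, 6.73, 6.86 and 6.92 log2 CPM. Its mean was 6.79 ± 0.13 log2 CPM (SD, n = 4), with replicate 1 lowest and replicate 4 highest and a 1.21-fold range. Sesn1 encodes sestrin 1, a brake on the growth kinase complex mTORC1.

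Sesn1 had 348, 418, 426 and 406 reads, or 4.68, 4.69, 4.8 and 4.74 log2 CPM, and all pairs of replicates had overlapping counting intervals. Its SD of 0.052 was 0.722 times the SD from counting error (0.072), so differences between replicates were not detectable at this depth. The SD was 0.031 with trimmed-mean factors, 0.030 by median ratios and 0.029 without replicate 3. It was 0.060 with totals that leave out the mitochondrial genes, and 0.053, 0.057 and 0.063 without replicates 1, 2 and 4. Zmat3 encodes a zinc-finger protein that binds RNA and influences splicing, and it had the fewest reads of the 8 genes.

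Zmat3 had 148, 107, 134 and 132 reads, or 3.45, 2.73, 3.13 and 3.12 log2 CPM. It was the only gene of the 8 with its highest value in replicate 1, and replicates 1 and 2 were the one pair whose counting intervals did not overlap. The mean was 3.11 ± 0.30 log2 CPM (SD, n = 4), the range was 1.65-fold and the counting SD 0.13. Without replicate 2 the SD was 0.19, and it was 0.36 without replicate 3 or 4. The call for Zmat3 was lost without replicate 1 (adjusted p = 0.0896) and without replicate 2 (adjusted p = 0.128, both chi-square index of dispersion).

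Across the set, 5 of the 8 genes were lowest in replicate 1 (Mdm2, Bax, Phlda3, Sesn1 and Cdkn1a), against 35.0% of all genes. The other 3, Ccng1, Gadd45a and Zmat3, were lowest in replicate 2, against 31.5% of all genes. Scaling moved 2 of these positions. Cdkn1a was lowest in replicate 3 with trimmed-mean and median-of-ratios factors, and Ccng1 was lowest in replicate 3 under each of the 3 other scalings. The highest value fell in replicate 2 for Mdm2, Bax and Cdkn1a, in replicate 4 for Ccng1, Gadd45a and Phlda3, in replicate 3 for Sesn1 and in replicate 1 for Zmat3, and these positions were the same under all 4 scalings. Of all genes, 27.7%, 21.3%, 29.6% and 21.4% were highest in replicates 1 to 4.

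The log2 ratio of 2 genes within a replicate does not depend on the scaling, apart from the added 0.5 reads, and so compares genes without it. Over the 28 pairs, the ratio of Cdkn1a to Sesn1 varied least, with an SD of 0.053 and a 1.09-fold range. With 1 replicate left out this SD was 0.060, 0.052, 0.027 and 0.065 for replicates 1 to 4. Next came Mdm2 and Bax, with an SD of 0.071 and a 1.12-fold range. On their own these genes varied more than their ratio did, at SDs of 0.21 and 0.16. Phlda3 held its ratio to Sesn1 at an SD of 0.093 and to Cdkn1a at 0.12, and Ccng1 and Gadd45a followed, at 0.13.

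The ratios that varied most joined the Mdm2 and Bax pair with Zmat3 and Gadd45a. The ratio of Mdm2 to Zmat3 had an SD of 0.49 and spanned 2.30-fold, being lowest in replicate 1 and highest in replicate 2. The ratio of Mdm2 to Gadd45a had an SD of 0.37 and spanned 1.82-fold, with the same order of replicates 1 and 2. Relative to Cdkn1a, the SD was 0.12 for Phlda3, 0.15 for Bax, 0.16 for Ccng1, 0.20 for Mdm2, 0.23 for Gadd45a and 0.31 for Zmat3. Several of these values were smaller without the replicate farthest from the mean, a step that cannot raise an SD. Without replicate 1 the SD relative to Cdkn1a was 0.064 for Mdm2 and 0.092 for Bax, and without replicate 2 it was 0.10 for Gadd45a and 0.20 for Zmat3. These SDs describe 4 replicates, and no test was made of them.

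**Figure D4:**
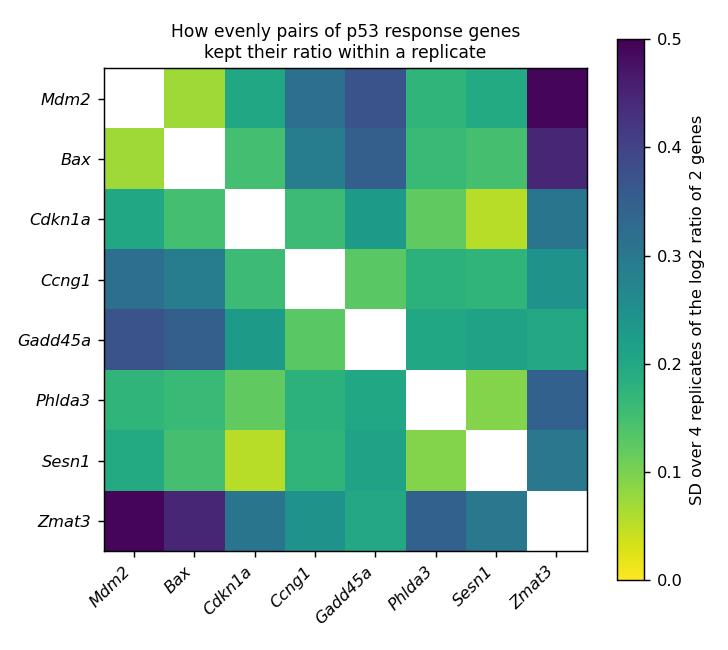
SD over 4 replicates of the log2 ratio of each pair of the 8 p53 response genes (colour scale, dark for large SDs; genes on both axes). Mdm2 and Bax, and Cdkn1a and Sesn1, form the pairs with the most even ratios, at SDs of 0.071 and 0.053, and the ratio of Mdm2 to Zmat3 varied most, at 0.49.

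Genes with like patterns were sought for the 3 members whose SD exceeded the median of all genes. Likeness was the root-mean-square difference of the 4 deviations from each gene's mean, over 11272 other genes with at least 100 reads on average. Nearest to Mdm2 were Coq8b, at a difference of 0.0096, Gga3, at 0.013, and Tpra1, at 0.016. Coq8b, a kinase-like protein of coenzyme Q synthesis, had 258, 437, 382 and 373 reads. Nearest to Gadd45a were Pld1 (0.014), Tceal1 (0.016) and Nceh1 (0.020), and nearest to Zmat3 were Setd7 (0.015), Synj2 (0.023) and Foxc1 (0.025). Foxc1, a transcription factor needed in podocytes, had 1012, 749, 943 and 948 reads.

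Marker genes of the cells in the preparation also moved between replicates. In bulk RNA, fewer cells of a type and less RNA per cell cannot be told apart. All 15 podocyte markers were listed, the least with 165 reads in a replicate, and their summed level was 16393, 9799, 12449 and 14830 CPM in replicates 1 to 4. Of the 15, 14 were lowest in replicate 2 and 15 highest in replicate 1, and the list's median deviation ran from 0.38 in replicate 1 to -0.49 in replicate 2. Of the 8 p53 response genes, 3 were lowest in replicate 2 (Zmat3, Gadd45a and, under the deposited scaling only, Ccng1), and Zmat3 alone was highest in replicate 1. Mdm2 and Bax were highest in replicate 2 and lowest in replicate 1, the reverse of the podocyte markers. Cdkn1a had the same extremes under the deposited scaling, but within a 1.02-fold range and with all counting intervals overlapping. Of all genes, 21.3% were highest in replicate 2 and 35.0% lowest in replicate 1.

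The 12 proximal tubule markers summed to 8038, 5660, 3890 and 6010 CPM, and all 12 were lowest in replicate 3. The 9 listed immune markers summed to 1119, 1426, 1363 and 1286 CPM, and 7 of them were lowest in replicate 1, as were Mdm2 and Bax. The 9 endothelial markers summed to 5752, 6401, 7473 and 6143 CPM, with 6 lowest in replicate 1. The 10 mesangial markers summed to 2173, 2453, 2447 and 2795 CPM, with 5 lowest in replicate 1 and 5 in replicate 2. The 9 distal nephron markers summed to 671, 519, 628 and 584 CPM, of which Umod made up the largest part, and 5 of the 9 were lowest in replicate 1 although the sum was highest there. No listed marker was at 0, and the part of cell composition or of mitochondrial share in the spread of the p53 genes was not tested.

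**Figure D5:**
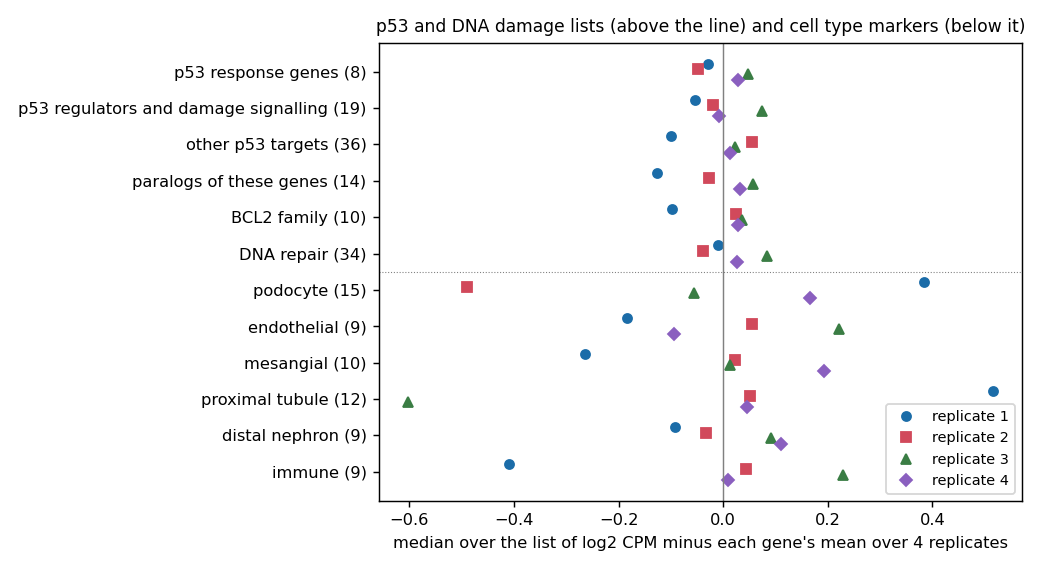
Median over each gene list of log2 CPM minus the gene's mean (x axis), by replicate, with the number of genes in brackets; lists of the p53 and DNA damage response lie above the dotted line and cell type markers below it. The medians of the p53 and damage lists stay between -0.13 and 0.08, while the podocyte list spans -0.49 to 0.38 and the proximal tubule list -0.60 to 0.52.

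Regulators of p53 and kinases that signal damage were examined next. Of 19 listed, 13 varied beyond counting error (chi-square index of dispersion, background 69.5% of all genes), and the median SD was 0.14. Mdm4, the Mdm2 relative that binds p53 and blocks its activity, had 299, 455, 519 and 422 reads and an SD of 0.25. Like Mdm2 it was lowest in replicate 1.

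Atm, the kinase that responds to double-strand breaks, was not called, with 963, 1195, 1213 and 1089 reads and an SD of 0.071. Atr, its counterpart for stalled replication, was called, with 337, 326, 420 and 407 reads and an SD of 0.20. Chek2, a kinase activated by Atm, had 45, 92, 88 and 70 reads and an SD of 0.37, and Ppm1d, a phosphatase that switches off damage signalling, had 289, 341, 444 and 359 reads and an SD of 0.21. The most even of the list were the ubiquitin ligase Cop1, at an SD of 0.045, and the deubiquitinase Usp7, at 0.048, neither of them called.

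Among 36 other known p53 targets, 31 varied beyond counting error (chi-square index of dispersion, background 69.5%) and the median SD was 0.21, beside 0.18 for all genes. The list's median deviation was lowest in replicate 1, at -0.10, and 16 of the 36 genes were lowest there, against 35.0% of all genes. Perp, a desmosomal protein linked to p53-dependent death, varied widely, with 542, 504, 264 and 423 reads and an SD of 0.51. Like the proximal tubule markers, it was lowest in replicate 3.

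Plk2, a polo-like kinase, was the most even of the targets with at least 100 reads on average, with 908, 1071, 1005 and 985 reads. Its SD of 0.021 was below the counting SD of 0.046. Fbxo22, an adaptor of a ubiquitin ligase, had 609, 703, 632 and 645 reads and an SD of 0.053, also below counting error. An SD below counting error was found in 3 of the 36 targets, a share near the 10.0% of all genes.

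Of 14 listed paralogs of the 8 genes, 10 were called beyond counting error (chi-square index of dispersion), a share near the background of 69.5%, with a median SD of 0.15. Cdkn1c, which encodes the kinase inhibitor p57 and is expressed in mature podocytes, had 5629, 7989, 8129 and 7528 reads and an SD of 0.15, and Cdkn1b (p27) had 1085, 1118, 1390 and 1240 reads and an SD of 0.16. Under the deposited scaling both were called beyond counting error and Cdkn1a was not, but the difference itself was not tested. Cdkn1a was chosen in part for its small SD, and it was called with totals that leave out the mitochondrial genes. The sestrin genes Sesn2 and Sesn3 had SDs of 0.27 and 0.38.

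Sesn2 was lowest in replicate 1, with 756, 1377, 1061 and 1196 reads. Sesn3 was highest there, with 635, 419, 425 and 520 reads. Gadd45b and Gadd45g had SDs of 0.14 and 0.13, both under the 0.22 of Gadd45a. Bak1, which opens mitochondria as Bax does, had an SD of 0.050, below its counting SD of 0.061, while Bok reached 0.20. Ccng2, at 0.090, was not called, and Phlda1 was, at 0.15. Of the zinc-finger genes, Zmat5 was called, at an SD of 0.24, and Zmat1 and Zmat2, at 0.14 and 0.066, were not.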

How the data were processed

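Poly(A) RNA of 4 ADR samples was sequenced as stranded paired ends over 2 lanes, per the labels' protocols and design text. HISAT2, featureCounts, Subread, limma and the build Rnor_6.0 are named in the submitters' processing notes, with no versions or settings; use of strand in counting and the filter on low genes are not given in the sources used here. The authors' deposited log2 values are log2 CPM with 0.5 reads added, as read from the values: 100% gave whole reads within 0.01. Of 13265 rows, 4 with displaced cells were left out, and 116 rows sharing a symbol were not looked up by symbol. Replicate numbers follow accession order and are only names.

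Recovered reads were tested against Poisson sampling (index of dispersion referred to chi-square with 3 degrees of freedom), and residual variances of the deposited log2 values against limma's trend (limma 3.58.1, R 4.3.3). P-values were adjusted by Benjamini-Hochberg over 13261 genes, and a gene was called at an adjusted p under 0.05. No count model was used, since the deposited unit is log2. Poisson intervals (95%) cover counting error only. Both tests were tested on simulated data. The genes and lists were chosen with earlier results of these data known. All 8 genes with values are named, and from each list the 3 genes with the largest and the 2 with the smallest SD among those with at least 100 reads on average, with the main regulators and the paralogs. Some genes that this rule names are not reported here.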

Additional observations from a re-analysis of the deposited data

Results flagged for a closer look

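Of 43 genes named by rule, 1 had a single replicate set apart from the other 3 by the ratio of the gap to the whole range, where chance alone gives about 1 in 20 and here 2.15. Over all genes used the share was 5.08%. The gene was Cyfip2, a p53 target that takes part in the WAVE actin complex, which was low in replicate 2 with 583 reads, against 782, 923 and 928 in replicates 1, 3 and 4 (gap over range 0.896). Its SD was 0.36. In the same replicate 14 of the 15 podocyte markers and 5 of the 10 mesangial markers were lowest, as were 31.5% of all genes. Cyfip2 was highest in replicate 4, whereas all 15 podocyte markers were highest in replicate 1. The part of cell composition in this value was not tested. None of the 8 p53 response genes was set apart in this way.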

How the results depend on the processing

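Of 280 recomputed values, 263 stayed within their criterion (1 SD for a level, 1.5 times for a spread or a count) and 17 moved. Of the 263, 100 could not have moved by construction and show no stability, such as levels and ratios under another scaling, values of single genes under the gene filter, and levels with 1 replicate left out. Of the 17, 4 concern the SD of Cdkn1a, 0.011 as deposited: trimmed-mean factors gave 0.027, size factors from median ratios 0.026 and totals free of mitochondrial genes 0.047, and it ran from 0.0073, without replicate 1, to 0.013 with 1 replicate left out. The 3 shifts under other scalings come from the scaling itself, since the reads were the same. The other 13 are single spreads, ratios or lists, and include 12 in place of 19 DNA repair genes beyond counting error without replicate 1. The number of p53 response genes called was 6 to 7 under the alternatives with 4 replicates and ran from 4 to 6 with 1 left out, lowest without replicate 1. Over all genes it was 8987 to 9312 with 4 replicates and 7326 to 8678 with 1 left out. limma called 0 genes under every alternative, with 661 to 725 at an unadjusted p under 0.05. These counts say little of stability, since limma's trend was fitted anew to the tested genes each time. No paired analysis was possible because there is 1 group. Low reads limit Zmat3 and Chek2.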

Other observations

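Genes of the BCL2 family, which set the threshold for mitochondrial cell death, were listed beside Bax for 10 of 14 symbols, and 6 of the 10 varied beyond counting error (chi-square index of dispersion, background 69.5% of all genes). The survival genes Bcl2l1 (Bcl-xL) and Bcl2l2 (Bcl-w) were at their extremes in the same replicate, in opposite positions. Bcl2l1 had 2334, 4438, 2688 and 2879 reads, highest in replicate 2 as were Bax and Mdm2. Bcl2l2 had 4160, 2992, 3518 and 4773 reads, lowest in replicate 2 as were Gadd45a and Zmat3. Bcl2a1, a survival gene of blood cells, had 87, 159, 192 and 141 reads and an SD of 0.40. Of the listed pro-death genes, Bad and Bak1 had the smallest SDs, at 0.052 and 0.050. They were not called beyond counting error, and neither were Bid and Bmf. Bok and Bcl2l11 were called, at SDs of 0.20 and 0.28.

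DNA repair genes were listed for 34 of 36 symbols, and 19 varied beyond counting error, or 55.9%, below the background of 69.5% of all genes. Without replicate 1 the number was 12, and that over all genes fell too, to 7326 of 13261. Their median SD was 0.14, beside 0.18 over all genes, and 17 of the 34 were highest in replicate 3, against 29.6% of all genes. Mgmt, which removes alkyl groups from guanine, had 397, 259, 528 and 420 reads and an SD of 0.48. Xrcc1, a scaffold of single-strand break repair, had 600, 1062, 1017 and 937 reads and an SD of 0.27, and the glycosylase Ogg1 had 90, 165, 147 and 158 reads and an SD of 0.30. Mre11, a nuclease that senses double-strand breaks, had 596, 659, 630 and 637 reads, and its SD of 0.050 was below the counting SD of 0.058. Lig1, the replicative DNA ligase, had an SD of 0.037 with 289 to 337 reads.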
